A study of Rattus norvegicus with 64 samples.

Results

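The lung transcriptome was compared 1 day after inhalation of fracking sand dust at 30 mg/m3 and of filtered air, across all genes in the deposited count table. The 12 rats of this comparison, 6 that breathed dust and 6 that breathed air, belong to a series of 64 rats. All were male Sprague-Dawley rats, an outbred stock, and were exposed in a whole-body chamber on 4 days, for 6 hours each day; neither their age nor the make-up of the dust is given in the sources used here. The day 7 and day 27 groups of the same concentration and the day 1 groups of the 10 mg/m3 study, each with its own air rats, serve only as references. A piece of lung was sequenced after depletion of ribosomal RNA, so the values are sums over all cells of that piece, and fewer cells of a type cannot be told apart from less RNA per cell. Each library was taken as 1 rat from the number in its title; each pair within a group differed by more than counting noise.

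Fracking sand is quartz-rich sand used to hold open the rock fractures of oil and gas wells. Respirable mineral particles that reach the alveoli are taken up mainly by macrophages, and injured epithelium and macrophages activate the transcription factor NF-kB, which drives chemokines that call in neutrophils. Thin type 1 epithelium and capillary endothelium form the gas-exchange surface, and loss or thinning of either is followed by division of progenitor cells.

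No gene met the adjusted threshold. Of 15551 genes tested with edgeR's quasi-likelihood test, 0 (0%) had a Benjamini-Hochberg adjusted p under 0.05, and the smallest adjusted p was 0.161. Without adjustment, 2334 genes (15%) had p under 0.05, of which 1204 (7.74%) were higher and 1130 (7.27%) lower with dust. DESeq2 called 46 genes on the same libraries, 32 higher and 14 lower, and limma voom called 0, with 2315 below 0.05 before adjustment. The unadjusted count rested in part on single air rats, being 1441 without rat 54, 1441 without rat 55 and 3771 without rat 53. It was also 1373 in a fit of the 12 libraries alone, 1521 with the liver list score and 1519 with the share of mitochondrial ribosomal RNA as a covariate. The 6 dust and 6 air rats did not overlap in 57 genes (0.367%), 33 higher (0.212%) and 24 lower (0.154%). Random group labels would separate a gene, in either direction, with a probability of 0.00216. Separation alone therefore does not set a gene apart from chance. The median log2 fold change over all genes was 0.02. The values below are therefore descriptions of differences that did not pass the main test, unless a sentence says otherwise.

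Air rats 51 and 53 stood apart from the other libraries before any comparison. They had counts on 21889 and 22077 genes, against 18216 to 19631 in the other 10 rats of day 1, and 6317 and 6410 genes with 1 to 5 counts, against 3423 to 3626. Their total counts, 5950924 and 5559459, lay inside the range of the others, 4739864 to 11432873. In 1786 gene rows a count was present in rat 51 or 53 while the other 34 libraries of the 30 mg/m3 study were at 0. For a part of the results that turn on these 2 rats, values without them are given too. As a check of the tissue label, the surfactant gene Sftpc of alveolar type 2 cells lay between 9139 and 13688 CPM in the air rats (CPM is the count scaled to a library of 1000000 counts and corrected by TMM, the trimmed mean of M-values) and between 9745 and 13462 CPM in the dust rats.

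Nfkbiz had the smallest unadjusted p of all genes tested, and Cxcl1 and Lcn2 are described with it as inflammatory genes. Nfkbiz encodes an atypical IkB protein that switches on secondary NF-kB targets. Its level was 17.1 CPM at the lowest, 19 at the median and 22.1 at the highest in air, and 21, 27.6 and 34.3 CPM in dust. Of the 6 dust rats, 5 lay above the highest air rat (log2 fold change 0.55, standard error (SE) 0.11, edgeR adjusted p = 0.161). Cxcl1, a neutrophil-attracting chemokine, ran from 3.38 through a median of 9.48 to 16.1 CPM in air and from 13.8 through 17.8 to 31.9 CPM in dust, with 5 dust rats above every air rat (log2 fold change 1.06, SE 0.27). Lcn2, which encodes the iron-sequestering protein lipocalin-2, had a lowest, median and highest level of 28.3, 83.1 and 122 CPM in air and of 110, 145 and 234 CPM in dust. The groups overlapped in Lcn2, where 3 dust rats lay above all air rats (log2 fold change 1.08, SE 0.31). Air rats 54 and 55 had the lowest levels of both Cxcl1 and Lcn2. DESeq2 called Nfkbiz (adjusted p = 0.0066) and Cxcl1 (adjusted p = 0.0425) but not Lcn2 (adjusted p = 0.0854), and edgeR called Nfkbiz also without dust rat 57, as the only gene called in that setting.

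The upstream sequences of these 3 genes are shown because NF-kB is known to act on their promoters and their levels were higher together. They are the 250 bases before the gene start in RefSeq's GRCr8 assembly, a later build than the one used for counting. The intervals are chr14:17479322-17479571 (minus strand), chr3:36081781-36082030 (minus strand) and chr11:58251471-58251720 (plus strand), each read 5′ to 3′ on the strand of its gene. Capitals mark matches to the NF-kB consensus GGGRNNYYCC (R is A or G, Y is C or T, N is any base), searched on both strands.
Cxcl1: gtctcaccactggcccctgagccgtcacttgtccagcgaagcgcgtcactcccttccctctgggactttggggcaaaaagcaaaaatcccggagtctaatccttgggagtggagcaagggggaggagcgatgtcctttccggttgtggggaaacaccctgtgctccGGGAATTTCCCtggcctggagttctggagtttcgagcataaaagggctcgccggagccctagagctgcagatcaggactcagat
Lcn2: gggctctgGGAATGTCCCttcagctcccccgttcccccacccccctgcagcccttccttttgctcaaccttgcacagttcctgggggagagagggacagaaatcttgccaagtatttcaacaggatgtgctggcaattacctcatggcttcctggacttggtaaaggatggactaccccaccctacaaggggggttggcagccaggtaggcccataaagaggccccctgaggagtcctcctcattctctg
Nfkbiz: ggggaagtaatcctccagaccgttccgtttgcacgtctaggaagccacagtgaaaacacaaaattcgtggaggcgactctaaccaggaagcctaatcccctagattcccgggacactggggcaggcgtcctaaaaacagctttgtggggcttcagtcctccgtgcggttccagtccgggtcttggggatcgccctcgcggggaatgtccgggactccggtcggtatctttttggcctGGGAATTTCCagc
In Cxcl1, 2 overlapping matches began 84 and 83 bases before the start; in Nfkbiz the single match began 13 bases and in Lcn2 242 bases before it. Of 33469 promoter windows of this length, 6.33% held a match. Among the genes of the chemokine and early cytokine list with a window, 5 of 13 held a match, and among those of the NF-kB list 8 of 17. In the secreted defence list, which holds Lcn2, it was 4 of 16. The windows of C3, Icam1 and Tnfaip2 held none. These are letter matches and were not tested for binding.

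The wider NF-kB and chemokine lists did not move as a block. Of 10 chemokines and early cytokines tested, 7 had a log2 fold change above 0, with a median of 0.10, and Cxcl1 alone had an unadjusted p under 0.05. Il1b, the interleukin-1 beta gene, had a median of 22.4 CPM in air and 22.9 CPM in dust with overlapping groups (log2 fold change 0.32, SE 0.29), and the value was 0.01 without dust rat 57. Ccl2, a monocyte chemokine, had a log2 fold change of 0.32 (SE 0.22), which ran from 0.20 without air rat 54 or 55 to 0.61 without air rat 52. Among the NF-kB subunits and feedback genes, 10 of 22 were above 0, with 1 higher and 3 lower at an unadjusted p under 0.05. Rela, the p65 subunit itself, was at 58.2, 89.8 and 105 CPM in air (lowest, median, highest) and at 63.4, 68.2 and 76.6 CPM in dust (log2 fold change -0.33, SE 0.12). Icam1, an adhesion molecule for leukocytes, and Tnfaip2, a TNF-induced gene, had log2 fold changes of -0.27 (SE 0.09) and -0.31 (SE 0.11). Known NF-kB targets thus lay on both sides of 0.

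Complement C3 and a pair of macrophage chemokines had higher values, while the monocyte and lymphocyte chemokine list was even, with 10 of 20 above 0 and a median of -0.02. C3 was at 175, 194 and 288 CPM in air (lowest, median, highest) and at 221, 331 and 473 CPM in dust, with 4 dust rats above all air rats (log2 fold change 0.59, SE 0.16). Ccl6, a macrophage chemokine, was at 104, 136 and 190 CPM in air and 122, 230 and 257 CPM in dust, with 5 dust rats above all air rats (log2 fold change 0.58, SE 0.14). Without dust rat 59, Ccl6 was the single gene called. The related chemokine Ccl9 had a log2 fold change of 0.88 (SE 0.32). Of the 20 secreted defence genes tested, 16 were above 0 and the median was 0.09, with 3 higher and 3 lower at an unadjusted p under 0.05. Slpi, an antiprotease of secretions, was among the lower ones (log2 fold change -0.55, SE 0.19).

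Neutrophil transcripts were mixed. Cd177, a neutrophil surface protein, had a median of 1.12 CPM in air and 2.69 CPM in dust (log2 fold change 1.57, SE 0.49), with 4 dust rats above all air rats. Of 15 neutrophil genes tested, 8 were above 0, the median was 0.06, and 1 was higher and 1 lower at an unadjusted p under 0.05. Their summed level was 245 to 343 CPM in air rats and 179 to 528 CPM in dust rats, so the dust rats spanned the air rats on both sides. An exact two-sided permutation test of the summed level gave p = 0.991, or 0.994 after adjustment over 9 library measures.

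An enzyme of amine breakdown and an oxidase subunit were among the leading genes. Aoc1, diamine oxidase, breaks down histamine and putrescine. It was at 17.6, 24.5 and 37.8 CPM in air (lowest, median, highest) and at 45, 57.1 and 104 CPM in dust. The groups did not overlap (log2 fold change 1.38, SE 0.29, edgeR adjusted p = 0.161, DESeq2 adjusted p = 0.0066). Noxo1, the organiser of the superoxide-producing NADPH oxidase NOX1, was at 3.47, 7.66 and 11.7 CPM in air and at 10.2, 12.3 and 17.6 CPM in dust (log2 fold change 0.87, SE 0.21). Only the lowest dust rat lay inside the air range. The oxidant-response list showed no such gap, since 15 of 24 targets of NRF2, the regulator of antioxidant genes, were above 0 with a median of 0.03 and 1 at an unadjusted p under 0.05. Hmox1, heme oxygenase 1, had a log2 fold change of 0.19 (SE 0.14).

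**Figure D1:**
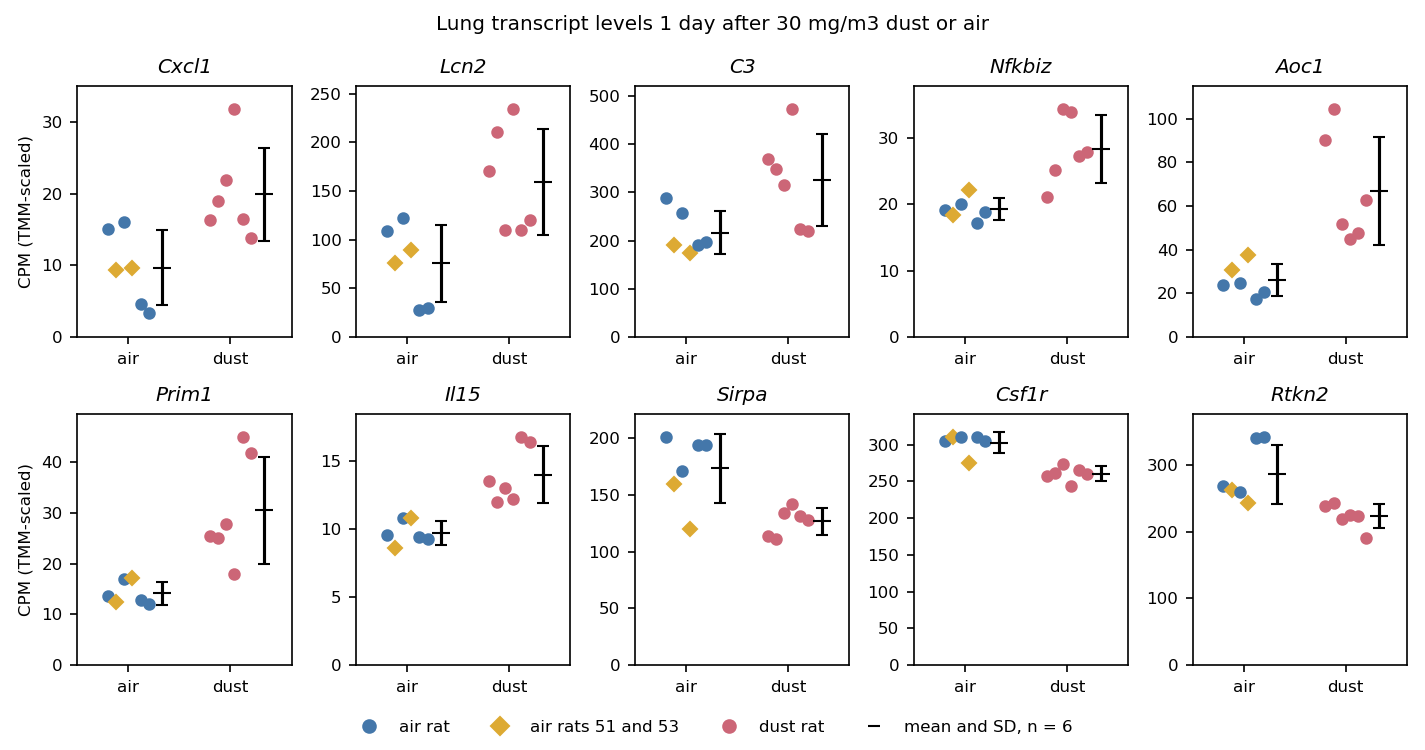
TMM-scaled CPM of 10 genes in the 12 day 1 lungs; points are rats, diamonds are air rats 51 and 53, and black bars give the mean and SD of 6 rats. Aoc1, Prim1, Il15, Csf1r and Rtkn2 show no overlap between air and dust, whereas Cxcl1, Lcn2, C3, Nfkbiz and Sirpa do overlap.

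DNA synthesis and division genes had higher values in most members. Prim1, the catalytic subunit of DNA primase, was at 12, 13.3 and 17.1 CPM in air (lowest, median, highest) and at 18, 26.6 and 45 CPM in dust, with no overlap (log2 fold change 1.1, SE 0.23, edgeR adjusted p = 0.161, DESeq2 adjusted p = 0.0066). Pole2, a subunit of DNA polymerase epsilon, was at 0.939, 1.72 and 2.61 CPM in air and at 2.37, 3.62 and 4.02 CPM in dust (log2 fold change 1.01, SE 0.24). Donson, which helps assemble the replicative helicase, was at 4.02, 6.02 and 6.50 CPM in air and 7.05, 7.99 and 9.38 CPM in dust without overlap (log2 fold change 0.52, SE 0.12). The helicase gene Ddx11 and the centriole gene Stil did not overlap either, with log2 fold changes of 0.55 (SE 0.15) and 0.57 (SE 0.22). Pola1, the catalytic subunit of the polymerase that works with primase, had 0.32 (SE 0.10), and Rrm1, a subunit of ribonucleotide reductase, 0.24 (SE 0.09). Of 34 DNA replication genes tested, 25 were above 0 with a median of 0.13, and 6 were higher and 0 lower at an unadjusted p under 0.05.

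All 28 mitosis genes tested were above 0, against 55.1% of all genes, with a median log2 fold change of 0.31. At an unadjusted p under 0.05, 10 were higher and 0 lower. Cdc20, an activator of the anaphase-promoting complex, had a median of 7.35 CPM in air and 10.0 CPM in dust (log2 fold change 0.51, SE 0.15). Ccnb1, cyclin B1, had a log2 fold change of 0.54 (SE 0.20) and Cenpf, a kinetochore protein, 0.47 (SE 0.18). The summed level of the list was 288 to 432 CPM in air rats and 286 to 613 CPM in dust rats, so the ranges overlapped. Of 30 replication-dependent histone genes, which belong to near-identical families and can lose reads to one another, 23 were above 0 with a median of 0.25. Hist1h1b, a linker histone, was at 23.2, 27.8 and 34.4 CPM in air and 30.7, 35.5 and 48 CPM in dust (log2 fold change 0.38, SE 0.11).

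A cytokine and a cytokine receptor were also separated by group. Il15, the cytokine that sustains natural killer and memory T cells, was at 8.55, 9.44 and 10.8 CPM in air (lowest, median, highest) and at 11.9, 13.2 and 16.8 CPM in dust, with no overlap (log2 fold change 0.52, SE 0.14). Il3ra, a receptor subunit for interleukin-3 named here after its values were seen, was at 13.9 to 16.6 CPM in air and 16.9 to 24.3 CPM in dust (log2 fold change 0.39, SE 0.10). The 18 natural killer and cytotoxic genes tested were divided evenly, with 9 above 0, and 16 of 24 T cell genes were above 0 with a median of 0.12.

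The list of macrophage particle receptors was nearly evenly divided, with 10 of 22 above 0 and a median of -0.04. In it, 2 were higher and 5 lower at an unadjusted p under 0.05. The list also counts Sirpa, Axl and Nlrx1, described below, whose roles are other than binding of particles. Sirpa encodes the receptor for CD47 that restrains phagocytosis. It was at 120, 183 and 202 CPM in air (lowest, median, highest) and at 112, 129 and 142 CPM in dust, overlapping through air rat 53 alone (log2 fold change -0.46, SE 0.10, edgeR adjusted p = 0.161, DESeq2 adjusted p = 0.0356). Csf1r, the receptor on which macrophages depend for survival, was at 275, 308 and 311 CPM in air and at 244, 261 and 274 CPM in dust without overlap (log2 fold change -0.22, SE 0.07, DESeq2 adjusted p = 0.126). It was named from another list, interstitial macrophage and monocyte genes, with 5 of 18 above 0 and a median of -0.07. There, 1 was higher and 3 lower at an unadjusted p under 0.05. The summed level of that list had medians of 14581 CPM in air and 15311 CPM in dust. Il34, a ligand of the Csf1r receptor that was named after its values were seen, did not overlap either, at 31.7, 35.8 and 36.5 CPM in air and 23.7, 29.5 and 30.4 CPM in dust (log2 fold change -0.31, SE 0.10). Axl, a receptor for uptake of dying cells, had -0.23 (SE 0.07). Tgfb1, transforming growth factor beta 1, had medians of 20.4 CPM in air and 13 CPM in dust (log2 fold change -0.61, SE 0.21), and -0.40 with the share of mitochondrial ribosomal RNA as a covariate.

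Nlrx1, a mitochondrial member of the NOD-like receptor family, was at 12.4, 18.1 and 21.9 CPM in air and 11.0, 13.2 and 16.3 CPM in dust (log2 fold change -0.45, SE 0.10). Mmp12, macrophage elastase, was at 2.01, 2.90 and 4.37 CPM in air and at 3.30, 5.30 and 6.51 CPM in dust (log2 fold change 0.67, SE 0.23). Arg1, arginase 1, had medians of 6.79 and 9.95 CPM (log2 fold change 0.50, SE 0.14), and 0.30 with the liver list score as a covariate. Spp1, osteopontin, lay between 3.10 and 24.8 CPM in air and between 7.42 and 15.9 CPM in dust (log2 fold change -0.04, SE 0.51). Its sign changed with single rats. The 19 alveolar macrophage genes tested had a summed level of 1885 to 2370 CPM in air and 2067 to 2449 CPM in dust, with 8 above 0 and a median of -0.14.

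Markers of the gas-exchange surface had lower values in most members. Rtkn2, a gene typical of type 1 epithelium, was at 243, 265 and 343 CPM in air (lowest, median, highest) and at 191, 225 and 243 CPM in dust. The groups did not overlap, though the lowest air rat and the highest dust rat were nearly level (log2 fold change -0.36, SE 0.09, DESeq2 adjusted p = 0.0446). Aqp5, a water channel of type 1 cells, was at 255, 358 and 465 CPM in air and at 250, 279 and 323 CPM in dust (log2 fold change -0.38, SE 0.12). Akap5, an anchoring protein, had -0.22 (SE 0.07) and Scnn1a, an epithelial sodium channel subunit, -0.59 (SE 0.23). Of 20 type 1 genes tested, 1 was above 0, the median was -0.15, and 7 were lower and 0 higher at an unadjusted p under 0.05. The type 2 list was less one-sided, with 8 of 21 above 0 and a median of -0.09, and Sftpc had a log2 fold change of 0.08 (SE 0.09).

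Of 24 endothelial genes tested, 18 were below 0 with a median of -0.20, and 6 were lower and 0 higher at an unadjusted p under 0.05. Cdh5, the cadherin of endothelial junctions, was at 358, 552 and 734 CPM in air and at 351, 403 and 451 CPM in dust (log2 fold change -0.44, SE 0.15), and -0.27 with the share of mitochondrial ribosomal RNA as a covariate. Erg and Sox18, both endothelial transcription factors, had -0.36 (SE 0.12) and -0.34 (SE 0.12), and Eng, a co-receptor for TGF-beta ligands, had -0.41 (SE 0.16). In fibroblast and collagen genes 20 of 24 were below 0 with a median of -0.15 and 5 were lower at an unadjusted p under 0.05. Col3a1, a fibrillar collagen, had medians of 3586 CPM in air and 2914 CPM in dust (log2 fold change -0.27, SE 0.10). In Cdh5, Eng and Col3a1 the lowest air and lowest dust rats were nearly level, and the spread lay in the higher air rats. Air rats 54 and 55 had the highest air levels in these genes and in Rtkn2, Aqp5, Akap5, Scnn1a and Erg. The same rats had the lowest air levels in the kinetochore gene Cenpf and the dynein gene Dnah7. In Sox18, Cdc20 and Ccnb1 another air rat lay above or between them.

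Markers of some other compartments of the tissue piece had list medians above 0, and their part in the results above was not tested. Of 24 ciliated cell genes tested, 23 were above 0 with a median of 0.28, and 3 were higher and 0 lower at an unadjusted p under 0.05. The summed level of the list was 644 to 1384 CPM in air (median 1259) and 877 to 1509 CPM in dust (median 1250). Dnah7, an axonemal dynein, was at 1.16, 2.74 and 4.36 CPM in air and 3.74, 5.36 and 6.64 CPM in dust (log2 fold change 1.00, SE 0.24, DESeq2 adjusted p = 0.0356), and Ccno, a cyclin of ciliogenesis, had 0.61 (SE 0.23), or 0.38 without dust rat 57. Blood lists had similar medians: 15 of 16 erythroid genes were above 0 (median 0.29, or 0.05 without air rats 51 and 53) and 11 of 12 platelet genes (median 0.29, or 0.16 without them), with 0 at an unadjusted p under 0.05. The summed erythroid level was 4794 to 10578 CPM in air (median 6711) and 4209 to 21737 CPM in dust (median 5775). The summed platelet level was 144 to 555 CPM in air (median 269) and 108 to 1105 CPM in dust (median 160). For both sums the median was thus lower in dust, while the highest rat was a dust rat. Of 15 liver plasma protein genes tested, 14 were above 0 with a median of 1.58, and 9 were higher at an unadjusted p under 0.05. Alb, serum albumin, was at 10.0, 16.8 and 44.8 CPM in air and at 23.5, 66.5 and 165 CPM in dust. Ttr, transthyretin, and the fibrinogen genes Fga and Fgb had log2 fold changes of 1.95 (SE 0.73), 2.26 (SE 0.85) and 2.15 (SE 0.82). The summed liver level was 275 to 435 CPM in air (median 375) and 389 to 638 CPM in dust (median 421). An exact two-sided permutation test of the sum gave p = 0.026, or 0.234 after adjustment over 9 measures. Most of the sum came from members other than Alb, Ttr, Fga and Fgb, so that test is not one of these genes. Of the 17 listed genes, 0 was at 0 in all 12 rats. At the other times the same liver list had medians of -2.43 on day 7 and 1.72 on day 27.

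Of the remaining lists, ribosomal protein genes were above 0 in 63 of 73 (median 0.12), Rpl7 being an example at medians of 545 and 738 CPM. Heat shock genes were below 0 in 15 of 19 (median -0.14). Immediate early genes were below 0 in 19 of 25 (median -0.11), with Klf4, a zinc finger factor, at medians of 116 and 92.2 CPM, and Nr4a1, a nuclear receptor, at medians of 13.6 and 10.7 CPM. Cholesterol synthesis genes were above 0 in 18 of 24 (median 0.16). The clock gene Cry1 had a log2 fold change of -0.55 (SE 0.24), and 1 of 17 clock genes was at an unadjusted p under 0.05. The interferon list had 11 of 31 above 0 (median -0.07), with 0 higher and 3 lower at an unadjusted p under 0.05.

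**Figure D2:**
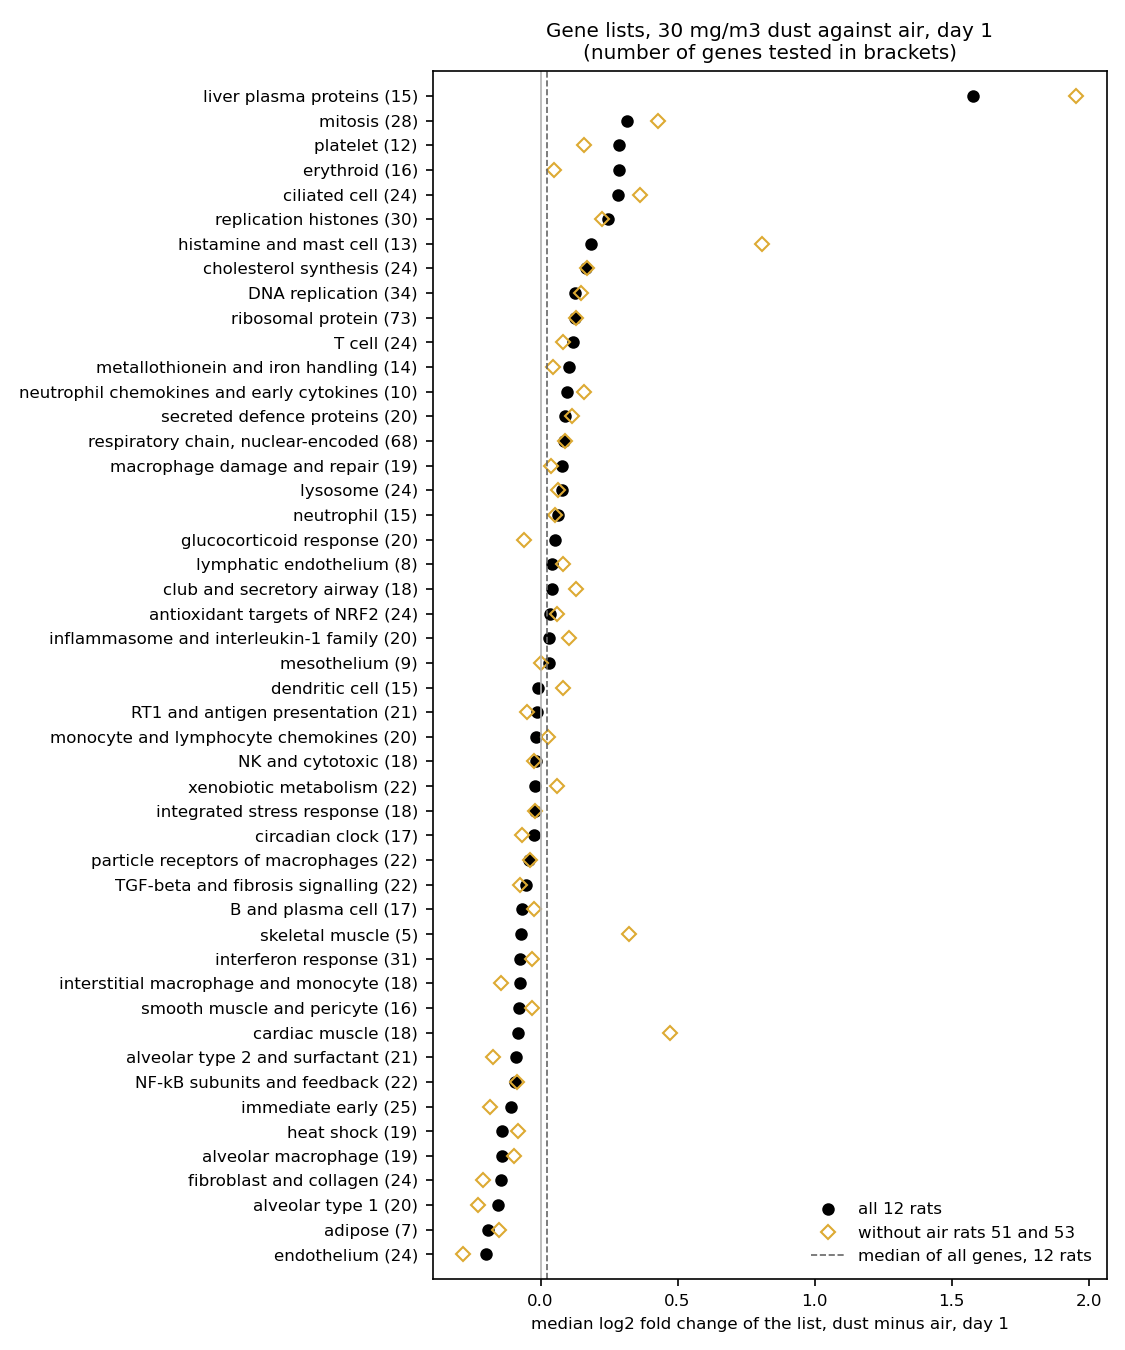
Median log2 fold change of each gene list, dust minus air on day 1, with all 12 rats (black points) and without air rats 51 and 53 (open diamonds); lists with at least 5 genes tested are shown and the dashed line is the median of all genes. The liver list lies at 1.58, the mitosis list at 0.31, and the endothelial and type 1 lists at -0.20 and -0.15.

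Further genes were named by p-value or by separation of the groups. Zfp692, a zinc finger protein, was at 12.6, 14.7 and 20.9 CPM in air (lowest, median, highest) and at 18.9, 21.6 and 24.3 CPM in dust (log2 fold change 0.52, SE 0.11, DESeq2 adjusted p = 0.0176). Lig4, the ligase of DNA end joining, had medians of 58.1 and 92.1 CPM (log2 fold change 0.53, SE 0.13), and Hexdc, a hexosaminidase, 10.8 and 15.5 CPM (log2 fold change 0.55, SE 0.13). Mss51, a mitochondrial protein, had 0.91 (SE 0.22). Among genes without overlap and with lower values were Lsamp, a cell adhesion protein (12.7 and 6.92 CPM at the medians), Dusp8, a MAP kinase phosphatase (7.93 and 4.92 CPM), Pak4, a kinase (56.3 and 45.3 CPM), and Mea1 (56.2 and 46.9 CPM). Bean1 and Cndp1, a carnosinase, had log2 fold changes of -0.36 (SE 0.08) and -0.65 (SE 0.16). Spag7 had -0.39 (SE 0.09), which was -0.20 without air rats 51 and 53.

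Leaving out air rats 51 and 53, a setting added after the data were seen, raised the number of genes called by edgeR from 0 to 877 of 15775 (5.56%), 425 higher (2.69%) and 452 lower (2.87%). Leaving out air rat 53 alone gave 220 calls, of which 218 were among the 877, and 39 of the 46 genes called by DESeq2 with all rats were among them. In that setting the called genes included Nfkbiz (log2 fold change 0.59, adjusted p = 0.00863), Aoc1 (1.62, 0.00863), Cxcl1 (1.05, 0.0435), Prim1 (1.13, 0.0175) and Pole2 (1.22, 0.0108). Lower calls included Sirpa (-0.59, 0.00391), Nlrx1 (-0.56, 0.00461), Rtkn2 (-0.44, 0.00863), Icam1 (-0.41, 0.00643) and Aqp5 (-0.52, 0.0149). Lcn2 (adjusted p = 0.0585), C3 (0.0968), Mmp12 (0.137) and Csf1r (0.0575) were not called. Heatr1, a ribosome assembly factor, at 1.85 and Adh7, an alcohol dehydrogenase, at -2.52 were called too, from low levels: the group medians were 0.616 and 2.16 CPM for Heatr1 and 1.79 and 0.258 CPM for Adh7 in air and dust. Of the type 1 list, 0 were called higher and 4 of 20 lower, of the endothelial list 0 and 3 of 24, of the DNA replication list 4 and 0 of 34, of the mitosis list 1 and 0 of 28, of the NF-kB list 1 and 4 of 22, and of the particle receptor list 0 and 4 of 22.

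The 2 rats left out can be placed on the scale of those calls, since they did not take part in choosing them. For the 872 of those genes that had also passed the filter with all rats, each rat's log2 level was set between 0, the mean of the other 4 air rats, and 1, the mean of the dust rats. The 4 air rats of the fit had medians from -0.26 to 0.39 and the 6 dust rats medians from 0.72 to 1.37, positions that the choice of genes favours. The same choice sets the 0 mark farther from the dust mean, so any left-out air rat would be expected above 0. How far above was not tested. Air rat 51 had a median of 0.71 and was nearer to the dust mean in 68.2% of the genes. Air rat 53 had a median of 1.25 and was nearer to the dust mean in 94.4%. Both left-out air rats thus lay on the side of the dust rats, and the 877 calls hold for the 4 remaining air rats and not for the 6.

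**Figure D3:**
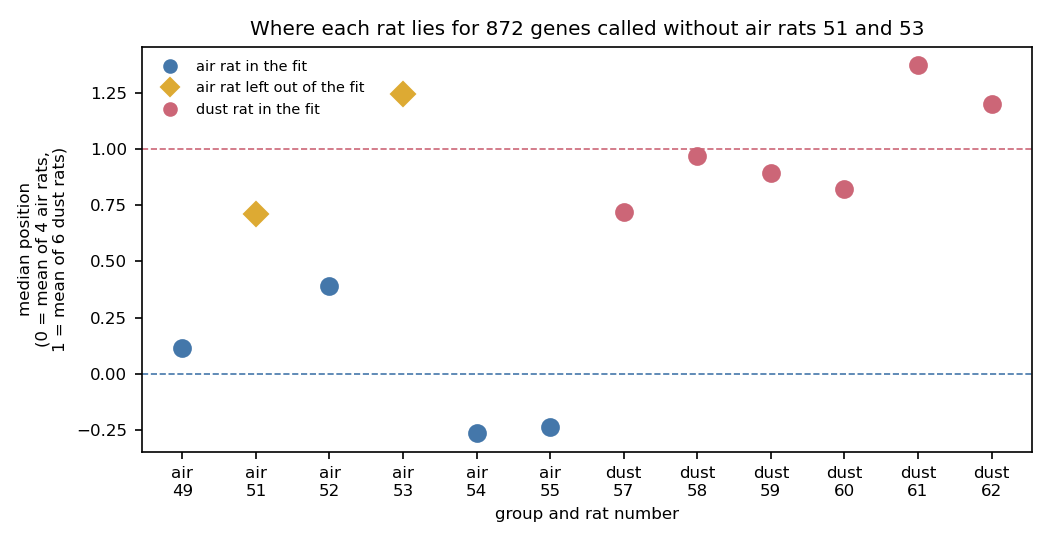
Median position of each of the 12 rats over 872 genes called without air rats 51 and 53, on a scale where 0 is the mean of 4 air rats and 1 the mean of 6 dust rats. The left-out air rats 51 and 53 (diamonds) lie at 0.71 and 1.25, beside the dust rats.

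Tests of the difference between days asked whether the day 1 effect differed from those of day 7 and day 27. By edgeR, 0 of 15551 genes (0%) were called for day 7 against day 1 and 0 (0%) for day 27 against day 1, with 720 (4.63%) and 718 (4.62%) below 0.05 before adjustment. In DESeq2 the calls numbered 25 and 0. The unadjusted counts were 1138 and 1164 without air rat 53, and the latter was 1104 without air rat 52. The estimates of the leading genes at the later times were smaller in part. Nfkbiz, Aoc1, Prim1 and Rtkn2 were chosen by their day 1 values, a choice that favours smaller estimates at other times. Nfkbiz had log2 fold changes of 0.14 on day 7 and 0.35 on day 27, Cxcl1 0.29 and 0.57, Lcn2 0.37 and 0.81, and Aoc1 0.27 and 1.25. Prim1 had -0.01 and -0.21, and Rtkn2 -0.12 and -0.06. The list medians on days 7 and 27 were 0.13 and 0.20 for mitosis, -0.07 and -0.07 for type 1 epithelium, and -0.01 and -0.07 for endothelium.

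The day 1 effect at 30 mg/m3 was compared with that at 10 mg/m3 as a difference of effects, each against its own air rats. Of 16190 genes in a fit of all 64 libraries, the effects differed in 1678 (10.4%) by edgeR, 954 (5.89%) with a higher value at 30 and 724 (4.47%) with a lower one. Of 1663 such genes with both estimates, 1654 had opposite signs (99.5%), against 67.5% of all 15551 genes; a large difference favours opposite signs, and the share is a description. The median absolute log2 fold change of those genes was 0.35 at 10 mg/m3 and 0.23 at 30 mg/m3. Dust at 10 mg/m3 against its air rats gave 596 calls (3.68%) in this fit and 20 in a fit of the 28 libraries of that study alone.

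Sirpa had a log2 fold change of 0.41 at 10 mg/m3 and -0.46 at 30 (difference -0.86, SE 0.16, edgeR adjusted p = 0.00241). Tnfaip2 differed by -0.67 (adjusted p = 0.00557), Nlrx1 by -0.79 (0.0044), Icam1 by -0.46 (0.015) and Aqp5 by -0.72 (0.0138). Higher differences included Lig4 at 1.1 (0.00326), Zfp692 at 0.97 (0.00302), Il15 at 0.98 (0.00566) and Prim1 at 1.20 (0.0216). Lcn2 had similar estimates at both concentrations, 0.98 and 1.08, with a difference of 0.11 (SE 0.49). For Cxcl1 the estimates were 0.42 and 1.06 (difference 0.65, SE 0.41, adjusted p = 0.305) and for Nfkbiz 0.05 and 0.55 (difference 0.51, SE 0.18, adjusted p = 0.0513). By list, 6 of 21 type 2 genes, 5 of 20 type 1 genes and 4 of 26 immediate early genes had lower differences and 0 had higher ones. Of 28 mitosis genes, 1 had a higher one. Other lists had calls on both sides, such as the clock list (4 lower and 2 higher of 17) and the NF-kB list (5 lower and 1 higher of 22).

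This difference moved with a library measure. The median share of counts on mitochondrial ribosomal RNA genes was 0.127% in air and 0.785% in dust at 10 mg/m3, and 0.435% in air and 0.278% in dust at 30 mg/m3. With that share as a covariate, 97 genes were called, 83 higher and 14 lower. The number also ran from 679 without air rat 54 and 720 without air rat 55 to 2825 without air rat 53, was 970 and 1053 without dust rats 61 and 62, and 3115 without air rats 51 and 53. The concentrations were separate studies, so concentration and study cannot be told apart.

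**Figure D4:**
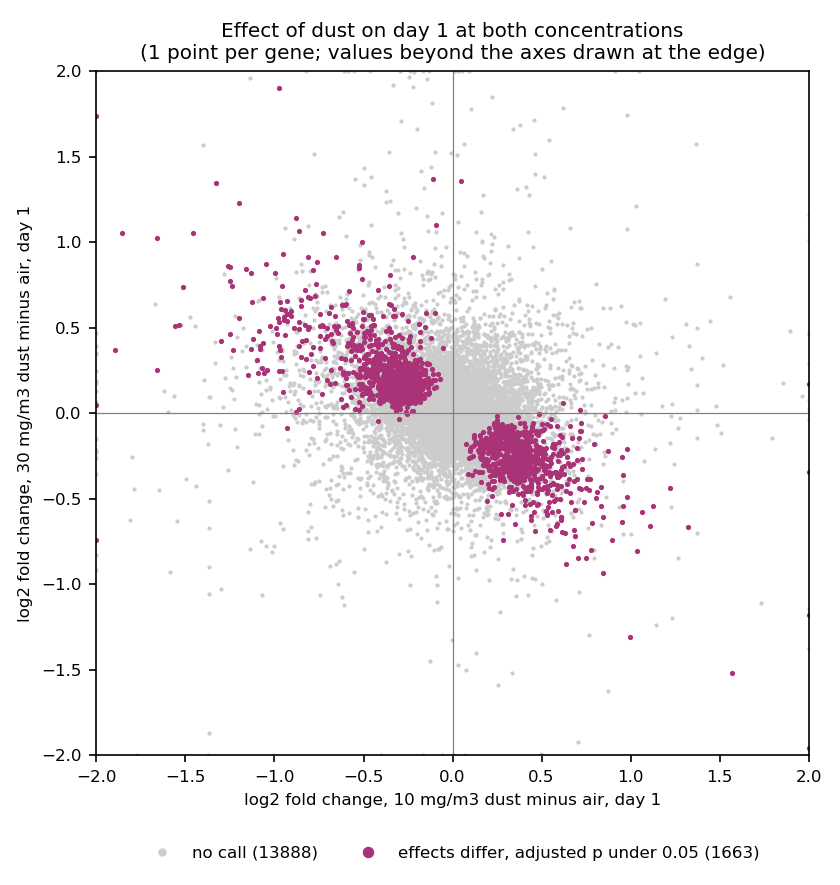
Log2 fold change of dust against air on day 1 at 10 mg/m3 (horizontal) and 30 mg/m3 (vertical), 1 point per gene for 15551 genes; the 1663 coloured genes have effects that differ at an adjusted p under 0.05. Coloured genes lie mainly in the upper left and lower right, where the signs are opposite.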

How the data were processed

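Per the submitters' processing notes, the deposited counts involved HTSeq 0.6.1, HISAT2 2.1.0, Trimmomatic 0.35, SAMtools 1.8, bcl2fastq 2.19 and the rat build Rnor_6.0. The authors deposited whole-number counts per gene symbol without normalisation, 1 table per concentration with 30045 rows. Which gene annotation and strand option HTSeq used is not given in the sources used here; values of overlapping and antisense genes are uncertain for that reason.

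Counts of the 36 libraries of the 30 mg/m3 study were fitted as 6 groups with edgeR 4.0.16 in R 4.3.3 (TMM, filterByExpr with a minimum count of 10 and a minimum total of 15, robust quasi-likelihood F test, Benjamini-Hochberg at 0.05). Differences of effects were contrasts in the same fit, or in a fit of 64 libraries for the concentrations. DESeq2 1.42.0, limma 3.58.1 (voom) and sva 3.50.0 were alternatives, and the code was tested on simulated data. The 12 libraries of the day 1 comparison at 30 mg/m3 held 4739864 to 11432873 counts. Library measures were compared by exact permutation over 924 splits, with a smallest two-sided p of 0.00216. The edgeR p-values set each difference against the spread between rats within groups, estimated over all groups of the fit.

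The comparison, 49 gene lists and the naming rule were chosen with earlier results of these data known. The rule named a panel of 8 genes, the 12 smallest p in each direction whose mean reached 1 CPM, at most 4 members per list, the 10 largest changes in each direction among genes without overlap and among those called without air rats 51 and 53. A part of the genes so named is described. Promoter windows came from RefSeq (GRCr8), where 19073 symbols were found.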

Additional observations from a re-analysis of the deposited data

Results flagged for a closer look

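In a group of 6 rats, a single rat far from the other 5 was marked where its gap to the nearest rat exceeded Dixon's 95% critical share of the group's range; chance marks about 1 in 20 groups, and each gene has an air and a dust group. In air, rat 53 was lowest in Csf1r (275 CPM, next 305) and Il34 (31.7 CPM, next 35.2) and highest in Fgb (2.44 CPM, next 1.01), rat 55 was lowest in Hexdc (7.75 CPM, next 10.4), and rat 54 was highest in the summed neutrophil list (343 CPM, next 278). In dust, rat 57 was highest in the summed neutrophil list (528 CPM, next 283) and in the share of counts on the 100 most abundant genes (19.9%, next 18.2%). Dust rat 60 was highest in Cd177 (8.13 CPM, next 3.71), dust rat 59 lowest in Ccl2 (3.61 CPM, next 5.48), and dust rat 61 lowest in Sox18 (41.1 CPM, next 63.0) and highest in Stil (8.27 CPM, next 5.88).

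Of the 71 genes named, 28 had day 1 effects that differed between 30 and 10 mg/m3 by edgeR's test of the difference. The edgeR adjusted p ran from 0.00241 (Sirpa) to 0.0454 (Scnn1a). Of all genes tested, 10.4% differed. Most genes were named by their day 1 values at 30 mg/m3, which are part of the difference. That choice favours a larger share among them. Differences below 0, on the log2 scale and as effect at 30 minus effect at 10, were found for Tgfb1 (-1.22), Cndp1 (-0.99), Nr4a1 (-0.96), Scnn1a (-0.90), Sirpa (-0.86), Sox18 (-0.86), Nlrx1 (-0.79), Mea1 (-0.76), Aqp5 (-0.72), Spag7 (-0.68), Tnfaip2 (-0.67), Cdh5 (-0.66), Klf4 (-0.61), Rela (-0.60), Pak4 (-0.57), Icam1 (-0.46), Rtkn2 (-0.46) and Csf1r (-0.31). Differences above 0 were found for Mss51 (1.58), Prim1 (1.20), Lig4 (1.1), Hexdc (1.01), Il15 (0.98), Zfp692 (0.97), Cenpf (0.83), Donson (0.72), Il3ra (0.57) and Pola1 (0.51). Of these 28 genes, 5 (Hexdc, Lig4, Mss51, Sirpa and Zfp692) were still called when the share of mitochondrial ribosomal RNA entered as covariate. Leaving out each of the 12 day 1 rats of the 30 mg/m3 study in turn left 17 (without air rat 55) to 28 called.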

How the results depend on the processing

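For dust against air on day 1, the count of called genes was 0 under DESeq2's size factors, library totals, no filter on low counts, both limma voom settings, the 12 libraries alone, 1 surrogate variable, and the liver score or mitochondrial ribosomal RNA share as covariate. It was 46 with DESeq2's test and 877 without air rats 51 and 53. Leaving out each of the 12 rats of this comparison in turn gave 0 to 220. For day 7 against day 1, DESeq2's test gave 25 against 0. The count of 1678 for the concentrations was 978 without the filter, 97 with the ribosomal RNA share as covariate and 3115 without air rats 51 and 53. It ranged from 679 to 2825 when each of the same 12 rats was left out. Rats of the 10 mg/m3 study were not left out in turn. The count of 57 genes without overlap was 782 without air rats 51 and 53, where fewer rats leave more genes without overlap. The cause of the other changes was not tested. Of 1629 values of named genes under the alternatives, 8 reversed. Spp1 was 0.36 under limma voom and 0.17 with the liver score. It ranged from -0.24 to 0.39 when each of the 12 rats was left out. The value was 0.25 without air rat 49, 0.39 without air rat 52, and 0.025, 0.053 and 0.033 without dust rats 57, 59 and 60. Sftpc was -8.07e-05 with the ribosomal RNA share. No paired analysis was possible because each rat has a number of its own. Low counts limit the precision of genes near 1 CPM.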
